A study of Mus musculus with 6 samples.

Results

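The genes *Cxcr1*, *Cxcr3*, *Cxcr4*, *Cxcr5*, *Cxcr6*, *Ccr4*, *Ccr6*, *Ccr7* and *Ccr9*, which encode 9 chemokine receptors, were examined in splenic T cells with 0, 1 or 2 copies of the *Ikzf3N159S* allele. They were taken by symbol from the 25239 genes in the count files, and all 9 were among the 12117 genes that passed the filter on low counts. They were chosen by their read counts in all 3 genotypes, as a set of receptors in which some heterozygous levels lay away from the midpoint of the other genotypes. The values below are therefore given without a test for these genes, and the calls are counted as a description.

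*Ikzf3* encodes Aiolos, a zinc finger transcription factor of the Ikaros family. The *N159S* allele was introduced into the mouse germline by CRISPR-Cas9, so every cell of a mutant mouse carried it and the T cells developed in a mutant host. Cells were purified by FACS from the spleens of C57BL/6 mice as TCRb+CD4+CD44-CD127+ T cells. There were 2 libraries from wild-type (*Ikzf3+/+*), 2 from heterozygous (*Ikzf3+/N159S*) and 2 from homozygous (*Ikzf3N159S/N159S*) cells. The study's methods count 2 mice for each mutant genotype and do not say how many wild-type mice gave the T cells. The ages and sexes of these mice are not given in the sources used here.

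Chemokine receptors are G protein-coupled receptors that steer lymphocytes along gradients of secreted chemokines. CCR7 and CXCR4 act on naive T cells, CCR7 in guiding them into lymph nodes and CXCR4 in retention near stromal cells that make CXCL12. CXCR3, CCR4, CCR6 and CXCR6 are known from effector, memory and regulatory T cells, and CXCR5 from follicular helper T cells and B cells. CCR9 guides T cells to the small intestine and the thymus, and CXCR1 is best known from neutrophils.

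The libraries held 11696461 to 17317260 reads on genes. The genes of the naive CD4 T cell list (among them *Cd3e*, *Cd3g*, *Cd4*, *Lck*, *Il7r*, *Lef1* and *Tcf7*) were detected in every library, with summed normalized counts of 83220 to 102500. A normalized count is the number of reads scaled to a common library size. The genotypes also differed in sex-linked transcripts. *Xist*, which is made from an inactive X chromosome, was at 10940 and 12340 normalized counts in *Ikzf3+/N159S* T cells and at 11.6 to 29.6 in the other 4 libraries. The 4 Y-linked genes *Ddx3y*, *Eif2s3y*, *Kdm5d* and *Uty* were at 498 to 4691 in those 4 libraries and at 0.884 to 16.4 in the heterozygous ones. Every comparison with the heterozygous genotype is thus also a comparison across this difference, and these cannot be told apart.

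Among the 9 receptors, the heterozygous cells stood outside the range of the other genotypes for 5. *Cxcr3*, *Cxcr5*, *Ccr4* and *Ccr6* were higher in both *Ikzf3+/N159S* libraries than in all 4 others, a pattern shown by 9.52% of the tested genes. *Cxcr4* was lower in both *Ikzf3+/N159S* libraries than in all 4 others, as were 7.55% of the tested genes. *Cxcr1* rose stepwise from 0 to 1 to 2 copies without overlap between genotypes, as did 4.08% of the tested genes, and 0 receptors fell stepwise, against 3.67%. *Cxcr6* was low in *Ikzf3N159S/N159S* cells alone, and *Ccr7* and *Ccr9* lay near the midpoint. A level outside both other genotypes was thus found for 5 of the 9 genes, and the other 4 did not show it.

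**Figure D1:**
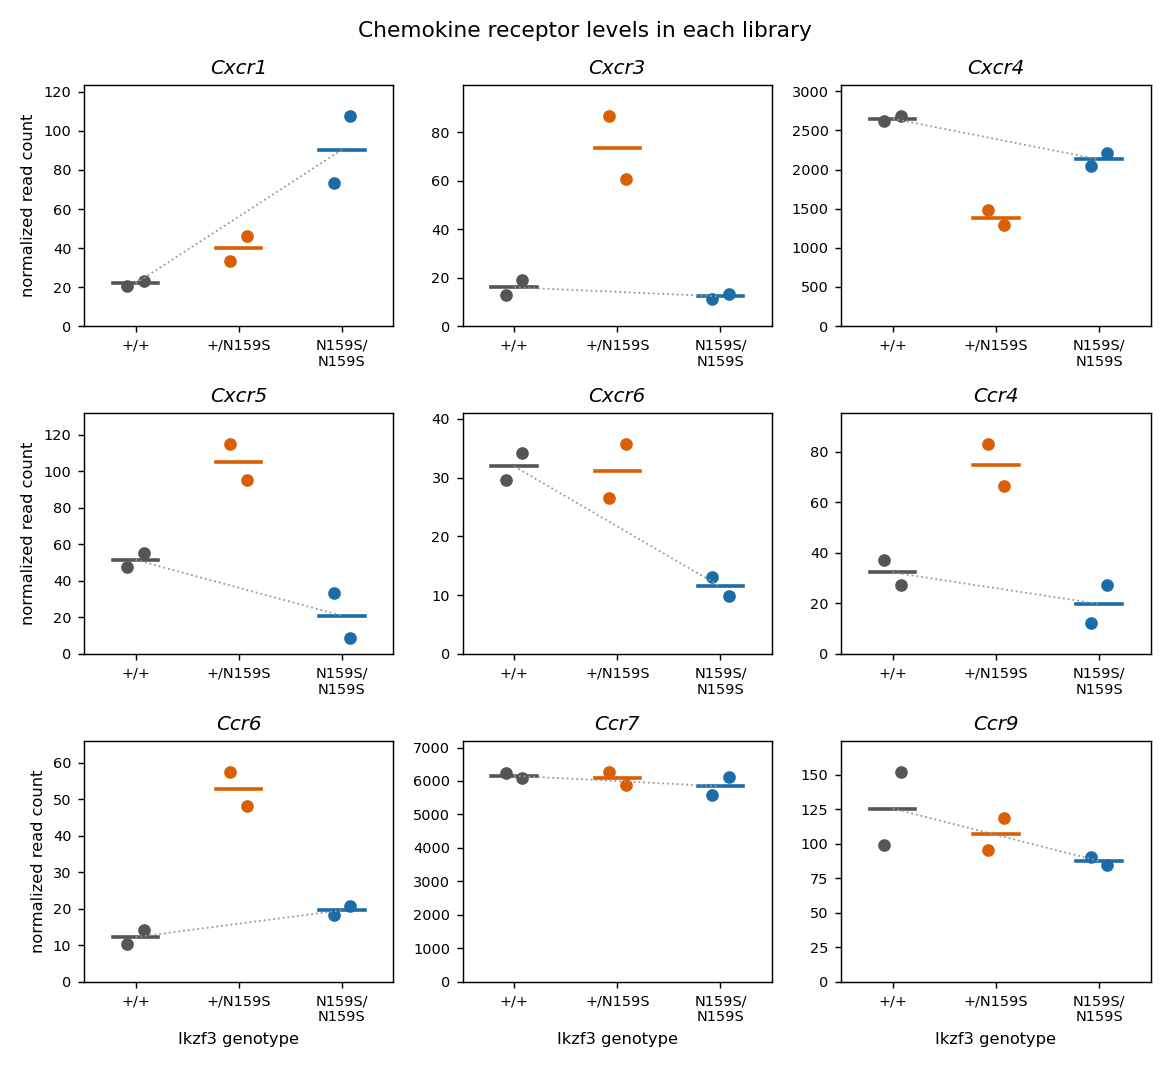
Normalized read counts (vertical axes, each from 0) of the 9 receptors in the 2 libraries of each *Ikzf3* genotype (horizontal axes). Points are libraries, short bars are means, and the dotted line joins the means of *Ikzf3+/+* and *Ikzf3N159S/N159S*. *Cxcr3*, *Cxcr5*, *Ccr4* and *Ccr6* peak in *Ikzf3+/N159S*, *Cxcr4* is lowest there, and *Cxcr1* climbs with each copy.

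*Cxcr3*, the receptor for the interferon-induced chemokines CXCL9, CXCL10 and CXCL11, lies on the X chromosome (mm10, chrX:101731535-101734147). Its normalized counts were 12.9 and 19.1 in wild-type libraries, 86.6 and 60.7 in heterozygous libraries, and 11.3 and 13.2 in homozygous libraries. Both heterozygous libraries were far above the others, which overlapped each other. The means were 16.0 ± 4.44, 73.7 ± 18.3 and 12.2 ± 1.30 (SD, n = 2 each). The log2 difference from *Ikzf3+/+* was 2.17 (standard error 0.37) with 1 copy and −0.43 (standard error 0.55) with 2 copies, the latter being −0.65 without *Ikzf3+/+* replicate 1 and −0.08 without replicate 2. The heterozygous level was 5.22 times the midpoint of the other means, the farthest from the midpoint of the 9 receptors. On the log2 scale 0.0908% of the tested genes lay further above the midpoint, but the receptors had been chosen by this same departure.

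*Ccr6*, the receptor for CCL20 that marks T helper 17 cells and is also found on B cells, lies on chromosome 17 (chr17:8236041-8258519). Normalized counts of *Ccr6* were 10.3 and 14.1 in wild-type libraries, 57.4 and 48.2 in heterozygous libraries, and 18.3 and 20.8 in homozygous libraries. The 3 genotypes did not overlap, and the order was wild type, homozygous, heterozygous. The log2 difference from *Ikzf3+/+* was 2.08 (standard error 0.39) with 1 copy and 0.64 (standard error 0.48) with 2. Of the 4 receptors that peaked in heterozygous cells, *Ccr6* was the member whose homozygous mean (19.6 ± 1.80, SD, n = 2) was above the wild-type mean (12.2 ± 2.70, SD, n = 2).

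*Cxcr5*, the receptor for CXCL13 that brings cells into B cell follicles, lies on chromosome 9 (chr9:44511787-44526444). The libraries gave normalized counts of 47.6 and 55.4 in wild-type libraries, 114.9 and 95.4 in heterozygous libraries, and 33.1 and 8.77 in homozygous libraries. The genotypes did not overlap, with the homozygous libraries lowest and apart from each other. The log2 difference between *Ikzf3N159S/N159S* and *Ikzf3+/N159S* was −2.24 (standard error 0.37). The lowest value rested on 8 reads, and without *Ikzf3N159S/N159S* replicate 2 the difference from the midpoint on the log2 scale was 1.33 in place of 1.63, while without replicate 1 it was 2.295. The gene overlaps *Bcl9l* on the opposite strand over 109 exonic bases, and whether the counting used strand is not given in the sources used here, so reads from that stretch are uncertain.

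*Ccr4*, the receptor for CCL17 and CCL22 on T helper 2, regulatory and skin-homing T cells, is also on chromosome 9 (chr9:114490316-114505476). For this gene the normalized counts were 37.3 and 27.2 in wild-type libraries, 83.0 and 66.5 in heterozygous libraries, and 12.2 and 27.4 in homozygous libraries. The heterozygous libraries were highest, and the other genotypes overlapped by a margin of less than 1 normalized count. The log2 difference from *Ikzf3+/+* was 1.24 (standard error 0.34) with 1 copy and −0.73 (standard error 0.46) with 2. The value with 2 copies was −0.21 without *Ikzf3N159S/N159S* replicate 1 and −1.36 without replicate 2. It was −0.51 without *Ikzf3+/+* replicate 1 and −0.97 without replicate 2.

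In contrast, *Cxcr4*, the receptor for CXCL12, went below both other genotypes (chr1:128588199-128592299). It had normalized counts of 2620 and 2679 in wild-type libraries, 1482 and 1291 in heterozygous libraries, and 2043 and 2216 in homozygous libraries. No genotypes overlapped, and the order was wild type, homozygous, heterozygous from high to low. The log2 difference from *Ikzf3+/+* was −0.93 (standard error 0.10) with 1 copy and −0.32 (standard error 0.10) with 2. The heterozygous mean was 0.580 times the midpoint. This receptor was counted on 1339 to 2660 reads per library, and the 4 that peaked in heterozygous cells on 8 to 130.

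The heterozygous difference from the midpoint, on the log2 scale, was 2.38 (standard error 0.31) for *Cxcr3*, 1.76 (standard error 0.30) for *Ccr6*, 1.63 (standard error 0.29) for *Cxcr5*, 1.61 (standard error 0.29) for *Ccr4* and −0.78 (standard error 0.09) for *Cxcr4*. By edgeR's quasi-likelihood test, 4 receptors were called above the midpoint at an FDR under 0.05, as were 0.825% of the tested genes, and 1 was called below it, as were 0.206%. Nothing is read from these counts, since the same contrast chose the genes. When each of the 6 libraries was left out in turn, *Cxcr3* (2.09 to 2.61) and *Cxcr4* (−0.88 to −0.68) were called in all 6 fits. *Cxcr5* was not called without *Ikzf3+/N159S* replicate 1 (1.485). *Ccr6* was not called without *Ikzf3+/N159S* replicate 1 (1.62) or without *Ikzf3+/+* replicate 1 (1.67) or replicate 2 (1.90). *Ccr4* was not called without *Ikzf3+/N159S* replicate 1 (1.43), *Ikzf3+/+* replicate 2 (1.49) or *Ikzf3N159S/N159S* replicate 1 (1.34). No difference of these 5 genes changed sign. The median over the 9 receptors was 0.67, beside 0.01 over all tested genes, and nothing is read from it for the same reason as for the counts.

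**Figure D2:**
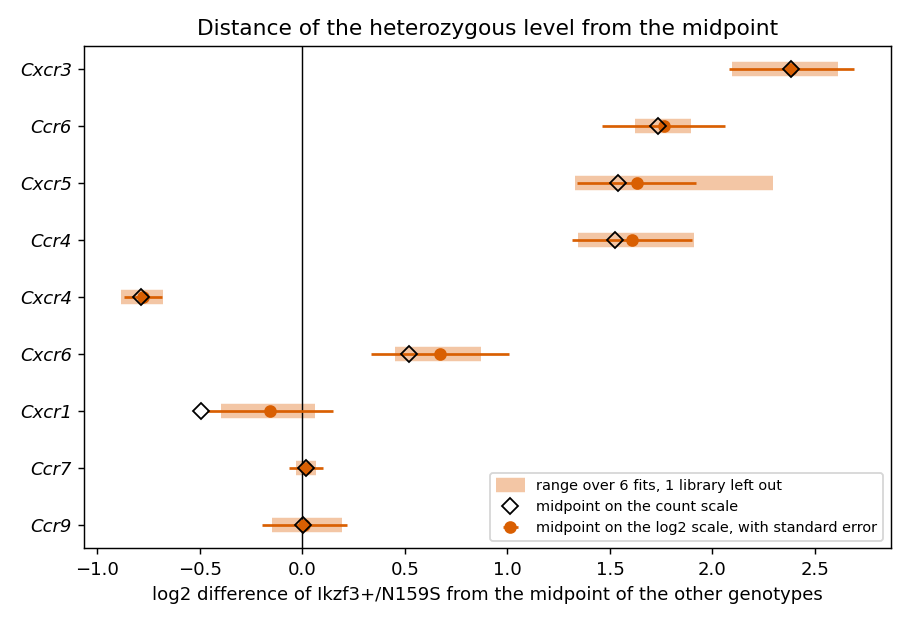
Log2 difference of the *Ikzf3+/N159S* level from the midpoint of the other genotypes (horizontal axis) for each receptor (vertical axis). Filled points with bars are fitted values with standard errors, pale bands span the 6 fits with 1 library left out, and diamonds take the midpoint on the count scale. *Cxcr3* is farthest to the right at 2.38, *Cxcr4* is on the left at −0.78, and *Ccr7* and *Ccr9* sit at 0.

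Sequences upstream of a start site are shown for 4 of the receptors that departed from the midpoint, since Ikaros family proteins are known to bind a GGGAA core. They are from RefSeq on mm10, 5′ to 3′ on the strand of the gene, cut before any annotated exon, and GGGAA on the printed strand or TTCCC, its reverse complement, is in capitals. *Cxcr5* was not matched in the promoter table. The *Ccr4* window and that of the second *Ccr6* start site lie inside the gene spans given above. They precede an internal start site and not the outer end of the gene.
Cxcr3, chrX:101734270-101734397, minus strand: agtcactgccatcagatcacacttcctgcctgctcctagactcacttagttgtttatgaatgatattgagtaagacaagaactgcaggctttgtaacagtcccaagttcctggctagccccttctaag
Ccr4, chr9:114496563-114496794, minus strand: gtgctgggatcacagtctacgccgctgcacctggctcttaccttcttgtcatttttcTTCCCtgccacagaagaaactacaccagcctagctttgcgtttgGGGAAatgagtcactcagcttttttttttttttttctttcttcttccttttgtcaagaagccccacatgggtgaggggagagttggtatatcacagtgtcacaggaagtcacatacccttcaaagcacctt
Ccr6, second start site, chr17:8242276-8242525, plus strand: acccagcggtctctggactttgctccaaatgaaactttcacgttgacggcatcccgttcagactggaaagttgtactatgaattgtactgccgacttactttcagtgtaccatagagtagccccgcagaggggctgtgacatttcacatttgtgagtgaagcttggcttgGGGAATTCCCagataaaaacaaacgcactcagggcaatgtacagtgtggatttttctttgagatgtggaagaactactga
Cxcr4, chr1:128592300-128592549, minus strand: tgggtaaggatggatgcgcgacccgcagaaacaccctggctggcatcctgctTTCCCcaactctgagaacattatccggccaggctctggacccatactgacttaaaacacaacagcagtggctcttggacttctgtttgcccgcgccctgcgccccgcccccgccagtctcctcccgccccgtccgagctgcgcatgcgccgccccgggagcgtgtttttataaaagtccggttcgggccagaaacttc

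The core occurred 0 times upstream of *Cxcr3* and 1 time upstream of *Cxcr4*. It occurred 2 times upstream of the internal start site of *Ccr4* and 2 times upstream of the second start site of *Ccr6*. Upstream of the first *Ccr6* start site it occurred 0 times, as it did for *Cxcr6* and *Ccr9*, and upstream of *Cxcr1* 1 time. Counts are over the 250 bases before each start. Of 32851 such windows in the table, 56.2% held the core on either strand. The longer form TGGGAA, which contains the core, was in 21.6% of windows and among the receptors in the second *Ccr6* window. These are matches of letters in a window and not binding sites.

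*Cxcr1*, a receptor for ELR-type CXC chemokines, showed the graded pattern (chr1:74191785-74194708). Normalized counts of *Cxcr1* were 20.6 and 23.2 in wild-type libraries, 33.6 and 46.3 in heterozygous libraries, and 73.2 and 107.5 in homozygous libraries. Each genotype was above the one with fewer copies, without overlap. The log2 difference from *Ikzf3+/+* was 0.85 (standard error 0.40) with 1 copy and 2.01 (standard error 0.35) with 2, so that 1 copy gave 0.422 of the log2 change of 2 copies. Its difference from the midpoint was −0.16 (standard error 0.31) on the log2 scale, and on the count scale the heterozygous mean was 0.712 times the midpoint. Its neighbour *Cxcr2*, 30.5 kb away, had at most 3 reads in a library. Of 7 tested myeloid markers, *S100a8* and *S100a9*, which are abundant in neutrophils, were called higher with 2 copies than with 1, by log2 differences of 2.21 (FDR = 0.0283, edgeR) and 2.11 (FDR = 0.0308, edgeR), and 0 were called between 2 copies and 0 by edgeR or DESeq2, with 3 at an unadjusted p under 0.05 by edgeR. *S100a8* was at 46.3 and 26.2 normalized counts in wild-type, 24.7 and 6.75 in heterozygous, and 68.8 and 82.2 in homozygous libraries. It was thus highest in the homozygous libraries, as *Cxcr1* was, but lowest in the heterozygous ones, and the myeloid sums were 709.7 and 689.8, 758.9 and 613, and 790.0 and 1026 in the order of the genotypes. The part of myeloid cells in the *Cxcr1* level was not tested.

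*Cxcr6*, the receptor for CXCL16 on tissue-resident and effector T cells, followed another pattern (chr9:123806477-123811754). Here the normalized counts were 29.6 and 34.2 in wild-type libraries, 26.5 and 35.7 in heterozygous libraries, and 13.1 and 9.87 in homozygous libraries. The wild-type and heterozygous libraries overlapped, and both homozygous libraries were below them. The log2 difference from *Ikzf3+/+* was −0.06 (standard error 0.36) with 1 copy and −1.46 (standard error 0.44) with 2. Its difference from the midpoint, 0.67 (standard error 0.34), was not called. Some markers of effector and of CD8 T cells were low in the same libraries, and others were not. *Il2rb*, an interleukin 2 receptor chain, was lower with 2 copies than with 0 by a log2 difference of −1.53 (FDR = 0.000436, edgeR), and *Cd8b1*, a CD8 chain, by −2.63 (FDR = 0.000502, edgeR). *Gzma*, on the CD8 and NK cell list, was instead higher with 2 copies than with 0, by 2.64 (FDR = 0.0433, edgeR). No other marker of these lists was called in that comparison. Between 2 copies and 1, 4 of 6 effector and memory markers and 2 of 5 tested CD8 and NK cell markers were called lower, and their part in the *Cxcr6* level was not tested. *Cxcr6* overlaps *Fyco1* on the opposite strand, with 0 exonic bases shared.

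*Ccr7*, the receptor for CCL19 and CCL21, was close to level across the genotypes (chr11:99144199-99155077). The *Ccr7* counts, normalized, were 6228 and 6078 in wild-type libraries, 6269 and 5890.2 in heterozygous libraries, and 5575 and 6108 in homozygous libraries. All genotypes overlapped. The log2 differences from *Ikzf3+/+* were −0.02 (standard error 0.10) with 1 copy and −0.08 (standard error 0.10) with 2. *Ccr7* is 598.2 kb from *Ikzf3* itself.

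*Ccr9*, the receptor for CCL25, lies 23.0 kb from *Cxcr6* (chr9:123767211-123783457). Normalized counts of *Ccr9* were 99.0 and 152 in wild-type libraries, 95.4 and 119 in heterozygous libraries, and 90.6 and 84.4 in homozygous libraries. The homozygous libraries were lowest, the wild-type and heterozygous libraries overlapped, and the means were 126 ± 37.5, 107 ± 16.4 and 87.5 ± 4.35 (SD, n = 2 each). The log2 difference of 2 copies from *Ikzf3+/+* was −0.54 (standard error 0.25), and it was −0.17 without *Ikzf3+/+* replicate 2 and −0.79 without replicate 1. Its difference from the midpoint was 0.01 (standard error 0.21).

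With 2 copies, *Cxcr1* was the 1 receptor called at an FDR under 0.05, where 5.26% of the tested genes were called. It was not called without *Ikzf3+/+* replicate 2, where its log2 difference was 2.11 (standard error 0.50). Without *Ikzf3N159S/N159S* replicate 1, *Cxcr5* was called too, at −2.55 in place of −1.22, and without replicate 2 of that genotype it was at −0.64 and not called. With 1 copy, 3 receptors were called (*Cxcr3* and *Ccr6* higher, *Cxcr4* lower), where 1.75% of the tested genes were, and only *Cxcr4* was called when the fit was made without *Ikzf3+/+* replicate 1, *Ikzf3+/+* replicate 2 or *Ikzf3+/N159S* replicate 1. Between 2 copies and 1, 4 receptors were called (*Cxcr3*, *Cxcr5* and *Ccr4* lower with 2 copies, *Cxcr4* higher), where 1.66% of the tested genes were. In that comparison *Cxcr4* and *Cxcr5* were not called without *Ikzf3N159S/N159S* replicate 2, *Cxcr4* was not called without *Ikzf3+/N159S* replicate 2, and *Ccr4* was not called without replicate 1 of either mutant genotype. The median log2 difference over the 9 receptors was −0.43 for 2 copies against 0, 0.85 for 1 against 0 and −1.40 for 2 against 1, beside 0.00038, 0.01 and −0.00811 over all tested genes. These comparisons share libraries, so their values are not independent. The receptors were chosen by the same read counts, so nothing is read from their medians.

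**Figure D3:**
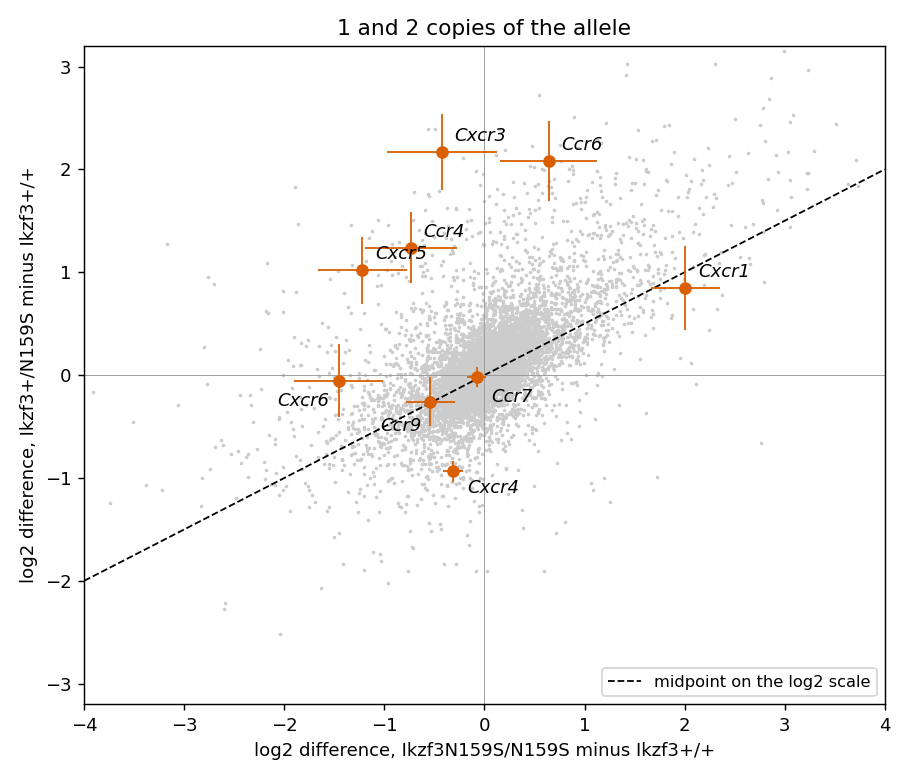
Log2 difference from *Ikzf3+/+* of *Ikzf3N159S/N159S* (horizontal axis) and of *Ikzf3+/N159S* (vertical axis). Orange points with standard errors are the 9 receptors, grey points are the other tested genes inside the axes, and the dashed line marks the midpoint. *Cxcr3*, *Ccr6*, *Cxcr5* and *Ccr4* are above the line, *Cxcr4* is below it, and *Cxcr1* is beside it at 2.01 and 0.85.

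The receptors differed widely in level. Per kilobase of exon, the mean normalized count over the 6 libraries was 3046 for *Ccr7* and 1139 for *Cxcr4*, and 13.1 (*Cxcr6*) to 45.1 (*Cxcr1*) for the other 7. In *Ikzf3+/+* cells the order per kilobase after *Ccr7* and *Cxcr4* was *Ccr9*, *Cxcr5*, *Cxcr1*, *Cxcr6*, *Ccr4*, *Cxcr3* and *Ccr6*. Among neighbours in that order, *Ccr9* and *Cxcr5*, *Cxcr5* and *Cxcr1*, and *Ccr4* and *Cxcr3* overlapped over their libraries. In *Ikzf3+/N159S* cells *Cxcr3* took place 3, at 42.6 ± 10.6 per kilobase (SD, n = 2), from place 8 in *Ikzf3+/+* cells at 9.24 ± 2.56 (SD, n = 2). There *Cxcr3*, *Cxcr5*, *Cxcr1* and *Ccr6* each overlapped the next in order, *Ccr4* was above *Ccr9* without overlap, and *Ccr9* and *Cxcr6* overlapped at the end. In *Ikzf3N159S/N159S* cells *Cxcr1* was at place 3, at 80.3 ± 21.6 per kilobase (SD, n = 2), above *Ccr9* and *Ccr6*, and *Ccr6*, *Cxcr5*, *Cxcr3*, *Ccr4* and *Cxcr6* each overlapped the next.

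**Figure D4:**
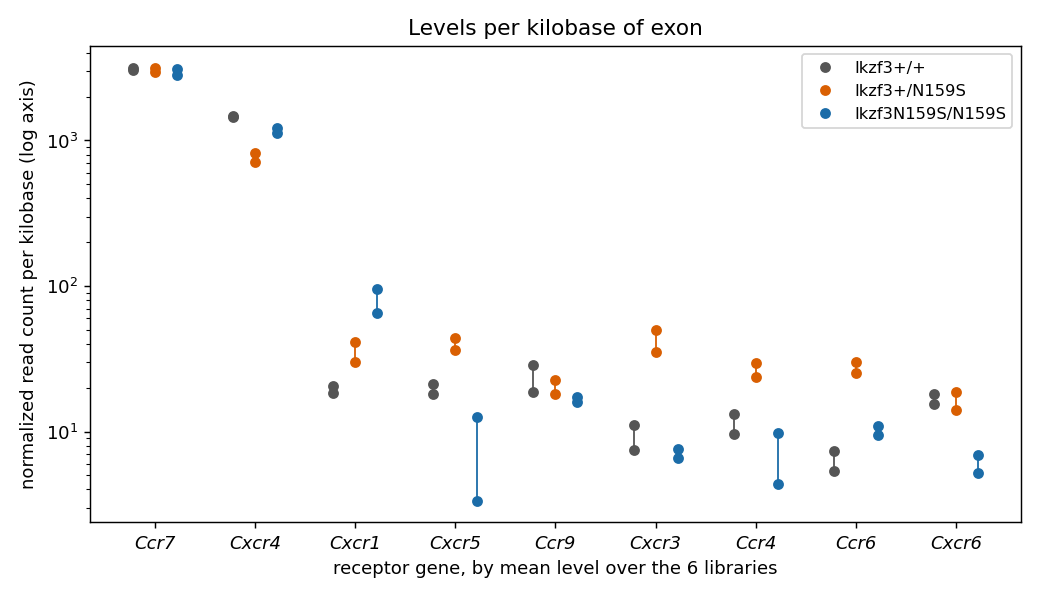
Normalized read count per kilobase of exon (vertical log axis) for each receptor (horizontal axis, by mean level) and genotype. Points are the 2 libraries of a genotype, joined by a line. *Ccr7* and *Cxcr4* are above 700 in every library and the other 7 receptors are below 100.

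Of 15 other chemokine receptor genes, 5 had enough reads for the test (among them *Ccr2*, *Ccr3*, *Ccr8* and *Ccrl2*), while 10 genes never exceeded 10 reads. *Ccr2*, the receptor for CCL2, was the 1 gene called, with normalized counts of 20.6 and 32.2 in wild-type, 61.8 and 52.1 in heterozygous, and 2.61 and 20.8 in homozygous libraries. The heterozygous libraries were highest, and the log2 difference between *Ikzf3N159S/N159S* and *Ikzf3+/N159S* was −2.40 (standard error 0.53), with an FDR of 0.0466 by edgeR. The call was lost without *Ikzf3+/+* replicate 2, either *Ikzf3+/N159S* library or *Ikzf3N159S/N159S* replicate 1. *Ccr2*, *Ccr3* and *Ccrl2* were higher in both heterozygous libraries than in all 4 others. The median log2 difference from the midpoint over the 5 genes was 1.35, and edgeR and DESeq2 called 0 of them there, with 4 at an unadjusted p under 0.05 by edgeR.

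Ligands of the receptors were scarcely expressed in these cells. Of 17 ligand genes, 6 had 0 reads in every library, and 3 (*Cxcl10*, *Cxcl16* and *Ccl25*) were tested, of which edgeR and DESeq2 called 0 in any comparison, with 0 at an unadjusted p under 0.05 by edgeR. *Cxcl12*, the ligand of CXCR4, had at most 2 reads in a library, and *Cxcl13*, the ligand of CXCR5, at most 3. *Ccl25* had 34 to 56 reads in a library.

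The machinery downstream of chemokine receptors was mostly level. Of 34 tested genes for G proteins, arrestins, receptor kinases, phosphoinositide 3-kinase and integrin activation, 3 were called. *Gng2*, a G protein gamma subunit, had normalized counts of 319 and 295 in wild-type, 256 and 358 in heterozygous, and 112 and 129 in homozygous libraries. It was thus lower in homozygous cells alone, with a log2 difference from *Ikzf3+/+* of −1.35 (standard error 0.20 and an FDR of 0.00247 by edgeR) and from *Ikzf3+/N159S* of −1.35 (standard error 0.19 and an FDR of 0.00639). *Gnb2*, a G protein beta subunit, rose with 2 copies by a log2 difference of 0.45 (standard error 0.10, FDR = 0.0196, edgeR), and *Pik3cg*, the kinase subunit that G protein beta-gamma activates, fell by 0.44 (standard error 0.11, FDR = 0.0475, edgeR). When each library was left out in turn, at least 1 gene of the list was called in every fit, and 1 alone without either *Ikzf3+/+* library or either *Ikzf3N159S/N159S* library. Of the 34 genes, 7 were lower in both heterozygous libraries than in all 4 others, where 7.55% of all tested genes were, and against the midpoint edgeR called 0 (5 at an unadjusted p under 0.05) and DESeq2 called 1.

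Among regulators known for these receptors, 8 of 9 genes were tested and 2 were called, of which *Klf2* is described here. *Klf2*, a factor of naive T cell trafficking, was at 6504 and 6659 in wild-type, 6334 and 7631 in heterozygous, and 8906 and 10220 in homozygous libraries. It was higher with 2 copies, with a log2 difference of 0.54 (standard error 0.11, FDR = 0.0195, edgeR), unlike the receptors that peaked with 1. The number of regulators called was 0 without either *Ikzf3+/+* library, and 1 without *Ikzf3+/N159S* replicate 1 or *Ikzf3N159S/N159S* replicate 2. *Tbx21*, which encodes T-bet, the T helper 1 factor that acts on *Cxcr3*, was named after its values were seen. T-bet transcripts had normalized counts of 10.3 and 7.05 in wild-type, 26.5 and 28.0 in heterozygous, and 10.5 and 7.68 in homozygous libraries, highest in both heterozygous ones, and its log2 difference from the midpoint, 1.61 (standard error 0.39), was not called (FDR = 0.0973, edgeR). *Gata3*, the T helper 2 factor, was lower in both heterozygous libraries than in all 4 others, with a log2 difference from the midpoint of −0.18 (standard error 0.09), also not called.

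Some markers of other cells moved with the receptors that peaked in heterozygous T cells. Of 9 B cell markers in the files, 8 were higher in both *Ikzf3+/N159S* libraries than in all 4 others and were called above the midpoint, with *Fcer2a*, which encodes CD23, as the exception. Their summed normalized counts were 2263 and 3339 in wild-type, 5251 and 8655 in heterozygous, and 2194 and 1477 in homozygous libraries. None of the 9 was at 0 reads in a library. The sort had required TCRb and CD4. *Cxcr5* and *Ccr6* are known from B cells as well as T cells. In bulk libraries, fewer cells of a type and less RNA per cell cannot be told apart.

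Of 6 regulatory T cell markers, 3 (*Foxp3*, *Il2ra* and *Ikzf2*) were called above the midpoint and were highest in both heterozygous libraries. The sums over the 6 were 986 and 1130 in wild-type, 1852 and 1442 in heterozygous, and 982 and 989 in homozygous libraries. *Foxp3*, the defining factor of these cells, had 103 and 168, 451 and 249.7, and 163 and 85.5 normalized counts in the same order. Of 6 effector and memory markers, *Il2rb*, *S100a4* and *Ccl5* were called above the midpoint. *Il2rb* did not peak in heterozygous cells and was low in homozygous ones. Its normalized counts were 362.5 and 500.5, 457.6 and 454.1, and 155.9 and 144.8 in the same order. On this list 4 genes, *S100a4*, *S100a6*, *Ccl5* and *Itgb1*, were highest in both heterozygous libraries. The effector and memory sums were 1756 and 1663, 2116 and 2344, and 1315 and 1643. CCR4, CXCR3 and CCR6 are known from both kinds of cells, and the sort had selected against CD44.

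The heterozygous libraries were not ordered alike in these lists. *Cxcr3*, *Ccr6*, *Cxcr5* and *Ccr4* were each higher in replicate 1 than in replicate 2 of *Ikzf3+/N159S*, and so was the summed regulatory T cell level, whereas the B cell and the effector and memory sums were higher in replicate 2. Of 4 tested follicular helper markers, *Icos* was called, lower in *Ikzf3N159S/N159S* than in either other genotype. Against the midpoint, edgeR called 0 of these 4 genes, 0 of 5 tested CD8 and NK cell markers and 0 of 7 tested myeloid markers, with 3, 3 and 2 at an unadjusted p under 0.05. DESeq2 called 0, 0 and 2 of them. The CD8 and NK sums were 471.5 to 852 and the myeloid sums 613 to 1026, with the lowest and highest sums outside the heterozygous libraries except for the lowest myeloid sum. The part of any of these cells in the receptor levels was not tested.

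**Figure D5:**
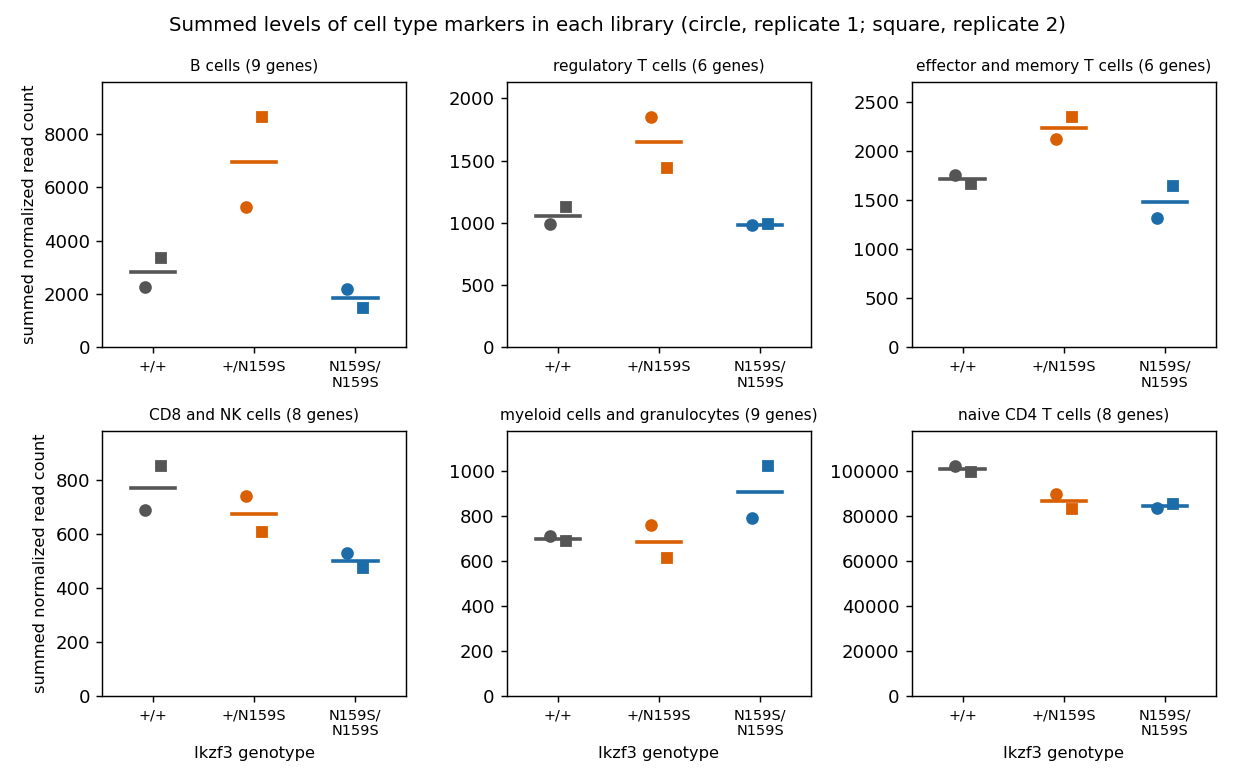
Summed normalized read counts (vertical axes, each from 0) of 6 marker lists in each library, by *Ikzf3* genotype (horizontal axes). Circles are replicate 1, squares are replicate 2, and bars are means. The B cell, regulatory T cell, and effector and memory sums are highest in heterozygous, and the naive CD4 T cell sums are highest in *Ikzf3+/+*.

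Of the 8 naive CD4 T cell markers, all tested, 2 were called lower with 1 copy than with 0, and 2 with 2 copies. Of all tested genes, 1.75% and 5.26% were called in these comparisons. *Il7r*, which encodes CD127, was lower with 1 copy by a log2 difference of −0.49 (FDR = 0.0368, edgeR). With 2 copies its difference was −0.35 and not called. *Lef1* was lower with 2 copies by −0.60 (FDR = 0.0391, edgeR), and with 1 copy its difference was −0.27 and not called.

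For the 6 receptors with at least 10 reads in every library, the gene most alike over the 6 libraries was sought among 10407 tested genes. By Pearson's r of log2 CPM, counts scaled to library size, this was *Prx* for *Cxcr1* (0.997), *Gm19897* for *Cxcr3* (0.991), *Map2k4* for *Cxcr4* (0.997), *Tia1* for *Ccr4* (0.994), *Gm15446* for *Ccr7* (0.998) and *Opa1* for *Ccr9* (0.984). *Map2k4*, a stress kinase, was at 905 and 904, 820 and 807, and 863 and 882 normalized counts in the order of the genotypes above, a much narrower range than that of *Cxcr4*. Between 27 and 273 genes had an r above 0.9 with a given receptor, over 6 libraries that share their scaling, and the coefficients are a description only.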

How the data were processed

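The 6 splenic T cell libraries (2 for each *Ikzf3* genotype) were used, as grouped by the labels. Per the labels and methods, the authors selected poly(A) RNA, trimmed reads with Trimmomatic 0.38.1, mapped them to mm10 with HISAT2 2.2.1 and obtained gene-level counts on refGene with HTSeq 2.0.2. The authors deposited these raw counts per gene, without normalization. Reads that were not assigned to a gene (42.3 to 49.3% of entries) were left out. Depth was 11696461 to 17317260 reads on genes, so receptors with few reads are measured less precisely.

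Counts were filtered with filterByExpr (minimum count 10, minimum total count 15), scaled by TMM and fitted with edgeR 4.0.16 in R 4.3.3 by the quasi-likelihood method, with 1 coefficient for each genotype and all 6 libraries. Contrasts were each pair of genotypes and the heterozygous level against the midpoint on the log2 scale. The FDR is a Benjamini-Hochberg adjusted p over every gene tested, and the threshold was 0.05. Log2 CPM used a prior count of 2. A p-value sets a difference against the spread between libraries of the same genotype, estimated over all 6 libraries with information shared across genes. That spread may be technical in part, and for wild type the number of mice is not given. The filter, the test and its threshold were checked on simulated counts with 200 changed genes. These were drawn from genes above a minimum mean read count and simulated with a fixed spread. The check therefore does not cover the receptors with the fewest reads.

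The receptors and gene lists (other chemokine receptors, ligands, downstream signalling, regulators, naive CD4 T cells, B cells, regulatory T cells, follicular helper T cells, effector and memory T cells, CD8 and NK cells, myeloid cells, sex-linked genes) were chosen with earlier results of these data known. Some genes on these lists are counted but not named or described. Genes named were the receptors, list genes called in a comparison or moving beside a result, and the gene most alike each receptor with at least 10 reads in every library, among genes whose log2 CPM averaged 1 or more. Coordinates, exon lengths and the sequences of 7 of the 9 receptors are from RefSeq on GRCm38 (mm10). Alternatives were DESeq2 1.42.0, its size factors, other filters, the replicate number as a block, a covariate for whether a library had the more or the fewer genes detected within its genotype, removal of X and Y genes, an FDR of 0.1, each library left out, the midpoint on the count scale, and, chosen after seeing the data, edgeR's earlier quasi-likelihood method and CPM without TMM.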

Additional observations from a re-analysis of the deposited data

How the results depend on the processing

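Of 497 differences of the 9 receptors recomputed under the alternatives, 476 moved by less than the spread between libraries, 21 moved by more and 0 of the called ones reversed. The deviations of same-numbered libraries had correlations of −0.167 (wild type and heterozygous), −0.216 (wild type and homozygous) and 0.238 (heterozygous and homozygous). These did not share a sign, and the numbers were not taken as a pairing in the main fit. With the replicate number as a block, 514, 170, 168 and 120 genes were called (2 copies against 0, 1 against 0, 2 against 1, and 1 copy against the midpoint) in place of 637, 212, 201 and 125, with the same receptors called, and 0 other chemokine receptors in place of 1. DESeq2 called 328 genes for 1 copy against 0. Without the filter on low counts, 542, 486 and 339 genes were called in the last 3 comparisons, 5 receptors for 1 copy against 0, and 2 other chemokine receptors. With at least 10 reads in every library, 3 receptors were called against the midpoint (*Cxcr5*, *Cxcr6* and *Ccr6* were not tested), 0 other chemokine receptors and 1 regulator. A covariate for more or fewer genes detected within a genotype gave 1756, 1422, 877 and 737 called genes, 4 receptors for 2 copies against 0 (*Cxcr1*, *Cxcr4*, *Cxcr5* and *Cxcr6*), 5 for 1 against 0, 2 other chemokine receptors, 8 signalling genes and 4 regulators; the cause was not tested. At an FDR of 0.1, 2 receptors were called for 2 copies against 0. edgeR's earlier quasi-likelihood method, chosen after seeing the data, called 0 other chemokine receptors, and 4 receptors against the midpoint in place of 5. With 1 library left out, the lone library of its genotype is assumed to vary like the others. The numbers called then ranged over 221 to 751, 68 to 250, 62 to 205 and 66 to 117 genes, and over 0 to 2, 1 to 3, 2 to 4 and 2 to 5 receptors. For the lists they ranged over 0 to 1 other chemokine receptors, 1 to 3 signalling genes and 0 to 2 regulators. By normalized count in place of per kilobase, 5 of 9 receptors kept their place in the order. Receptors other than *Cxcr4*, *Ccr7* and *Ccr9* have standard errors of 0.29 to 0.55 on the log2 scale, which limits the changes that could be detected at this depth.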
